A study of Mus musculus with 6 samples.

Results

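Haematopoietic stem cells are kept in the marrow by a set of factors made largely by reticular and perivascular stromal cells. In mouse bone marrow sorted into Grem1+ and Grem1- fractions, 10 such genes were followed here, namely Cxcl12, Kitl, Angpt1, Il7, Lepr, Vcam1, Jag1, Bst1, Foxc1 and Ebf3. They were represented by 28 probe sets whose platform annotation gives exactly 1 gene symbol, out of 34945 such probe sets in the table. Animals carried Grem1;TdTomato on a C57BL/6J background, were 6 to 8 weeks old, were recorded as male and received tamoxifen by mouth. The Grem1- fraction was the non-recombined marrow negative for CD45, CD31 and Ter-119, which are antigens of blood, endothelial and erythroid cells. The Grem1+ fraction is named after Grem1, a secreted antagonist of bone morphogenetic proteins, and no antigen gate is recorded for this fraction. Both fractions came from the same 3 mice, with 1 array for each fraction of each mouse, and neither the driver nor the recombinase of the reporter is described in the labels.

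In the marrow, reticular stromal cells rich in CXCL12 are marked by the leptin receptor and make stem cell factor (the product of Kitl), interleukin 7 and other cues that retain and feed stem and progenitor cells. FOXC1 and EBF3 are transcription factors known to maintain these cells, while VCAM1 holds cells that carry the integrin alpha 4 beta 1, and JAG1 activates Notch receptors on neighbouring cells. Fibroblasts, bone, cartilage, endothelium and blood cells also use several of these genes, so none of them alone marks a reticular cell.

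Array medians ran from 3.74 to 3.81 (log2), and arrays correlated across probe sets at 0.939 to 0.946 within Grem1-, 0.902 to 0.922 within Grem1+ and 0.793 to 0.846 between the groups. The Grem1 transcript stood at 3.69, 3.75 and 3.70 in the Grem1- fractions of mice 1, 2 and 3 and at 4.49, 4.14 and 8.61 in their Grem1+ fractions, so a level far from Grem1- was seen in mouse 3 alone. Ptprc, the gene of CD45, was at 11.78 to 12.37 in Grem1- despite its gate and at 7.29, 9.61 and 10.56 in Grem1+ on its brighter probe set. On its dimmer probe set, 1440165_at, it was at 8.37 to 9.38 in Grem1- and at 2.53, 3.30 and 3.71 in Grem1+. Xist, which is transcribed from the inactive X chromosome of females, measured 11.04 in the Grem1- fraction and 10.60 in the Grem1+ fraction of mouse 3, but at most 2.99 elsewhere on that probe set, which goes against the recorded sex of that animal. Values without mouse 3 are given for the members on which the results turn. RNA was measured in bulk, so fewer cells of a type and less RNA per cell cannot be told apart.

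Of the 28 probe sets, 12 lay above log2 4 on at least 3 of the 6 arrays and entered the test, and these covered 6 of the 10 genes. Differences below are Grem1+ minus Grem1- on the log2 scale, tested with limma with the mouse as a block and adjusted over all 18157 probe sets that met the same condition. Among the 12, a probe set of the transcription factor Foxc1 was higher in Grem1+ and a probe set of the ectoenzyme Bst1 was lower. That is 1 probe set in each direction, where 10.1% of all tested probe sets were higher and 7.76% lower, so the share is near the background. All Grem1+ arrays lay above all Grem1- arrays for 3 of the 12 and below them for 4, which was the case for 21.6% and 20.4% of all tested probe sets. For the other 5 the Grem1+ and Grem1- values were interleaved, and no call was made. When a mouse was omitted and the block retained, 0 of all tested probe sets passed in limma whichever mouse it was, with 4967 to 5158 at an unadjusted p under 0.05, so every call given here needed all 3 mice in that fit. The remaining 16 probe sets, among them every probe set of Kitl, Angpt1, Il7 and Ebf3, were above log2 4 on at most 2 arrays and are described by their values.

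**Figure D1:**
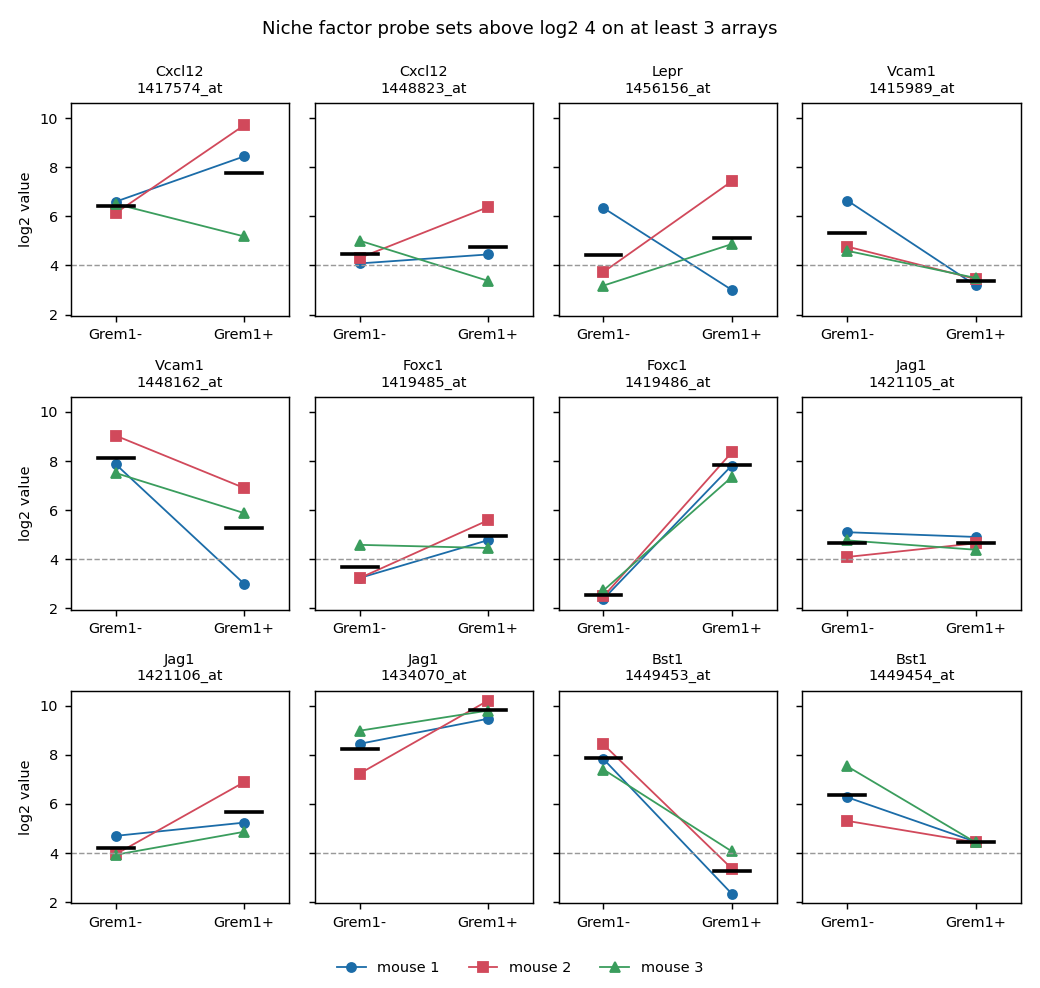
Log2 values of the 12 tested niche factor probe sets. Each panel is a probe set with its identifier, the y axis is the deposited log2 value, each colour and symbol is a mouse, lines join the Grem1- and Grem1+ fractions of a mouse, black bars are group means (n = 3) and the dashed line is log2 4. Foxc1 1419486_at rose and Bst1 1449453_at fell in each mouse, whereas the lines of Cxcl12 and Lepr cross.

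Cxcl12, the chemokine that holds stem cells in the marrow through its receptor CXCR4, varied widely between mice in Grem1+ and passed no test. Its brighter probe set, 1417574_at, was at 6.60, 6.14 and 6.51 in the Grem1- fractions of mice 1, 2 and 3 and at 8.44, 9.70 and 5.18 in their Grem1+ fractions. The Grem1- values were close together, while the Grem1+ values lay above them in mice 1 and 2 and below them in mouse 3. The mean difference was 1.36 (SE 1.02), which missed the threshold (adjusted p = 0.415); leaving out mouse 3 gave 2.70 and leaving out mouse 2 gave 0.26. Probe set 1448823_at had the same order of mice, at 4.45, 6.37 and 3.38 in Grem1+ against 4.08, 4.31 and 5.01 in Grem1- (difference 0.27, SE 0.78, adjusted p = 0.852). The remaining probe set, 1439084_at, lay between 3.14 and 4.03 on all arrays and showed no such order.

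The Cxcl12 promoter is shown because Foxc1 and Ebf3, whose products are known to maintain Cxcl12 expression in reticular cells, were measured beside it, and the Foxc1 promoter because Foxc1 is the member that rose. The promoter table matched 6 of the 10 genes. Both sequences are 300 bases, from 250 before to 50 after the start of the gene in RefSeq (GRCm38.p6), with Cxcl12 at chr6:117168285-117168584 and Foxc1 at chr13:31806396-31806695, both on the plus strand. Capitals mark matches to the GC box GGGCGG on either strand, and overlapping matches were counted separately.
Cxcl12: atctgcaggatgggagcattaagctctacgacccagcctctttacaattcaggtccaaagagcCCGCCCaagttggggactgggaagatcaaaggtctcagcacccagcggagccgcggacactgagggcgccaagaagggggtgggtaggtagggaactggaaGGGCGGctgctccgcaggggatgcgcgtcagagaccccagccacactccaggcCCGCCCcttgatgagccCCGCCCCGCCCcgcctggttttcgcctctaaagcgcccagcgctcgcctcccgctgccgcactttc
Foxc1: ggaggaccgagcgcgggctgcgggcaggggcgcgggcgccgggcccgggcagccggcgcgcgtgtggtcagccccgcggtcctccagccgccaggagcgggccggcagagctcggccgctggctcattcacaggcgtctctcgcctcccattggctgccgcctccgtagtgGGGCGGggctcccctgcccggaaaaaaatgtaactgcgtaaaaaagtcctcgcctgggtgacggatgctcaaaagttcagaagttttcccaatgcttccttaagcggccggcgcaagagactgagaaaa
The Cxcl12 window held 5 GC box matches and the Foxc1 window 1, and 35.7% of the 32851 promoters of that length held at least 1. G and C made up 64.7% of the Cxcl12 window and 67.3% of the Foxc1 window, against a median of 52.7% over all promoters. The forkhead core TAAACA, searched on both strands, occurs in 13.4% of promoters and in neither of these windows, and the same holds for the EBF core CCCNNGGG, found in 13.7%. These matches describe letters and not binding.

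Kitl encodes stem cell factor, the ligand of KIT, and its 4 probe sets were dim in both fractions. Probe set 1415854_at was at 2.86, 2.91 and 2.65 in Grem1- and at 2.80, 3.32 and 3.98 in Grem1+, so its highest value was just under log2 4 in the Grem1+ fraction of mouse 3. The other 3 probe sets stayed between 1.89 and 3.94 on all arrays, and the differences of the 4 ran from -0.23 to 0.56. Angpt1, a ligand of the receptor tyrosine kinase TIE2, was also dim, with no value of its 2 probe sets above 3.58.

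Il7 encodes the cytokine on which B cell precursors depend, and it was above log2 4 on a single array for each of its 2 probe sets. Probe set 1422080_at was at 5.51 in the Grem1+ fraction of mouse 2 and between 2.41 and 2.59 on the other 5 arrays. Probe set 1436861_at was at 5.60 in the Grem1+ fraction of mouse 1, at 3.29 in that of mouse 3 and between 2.38 and 2.78 elsewhere. The 2 probe sets thus had their high value in Grem1+ but in different mice, and neither was tested.

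**Figure D2:**
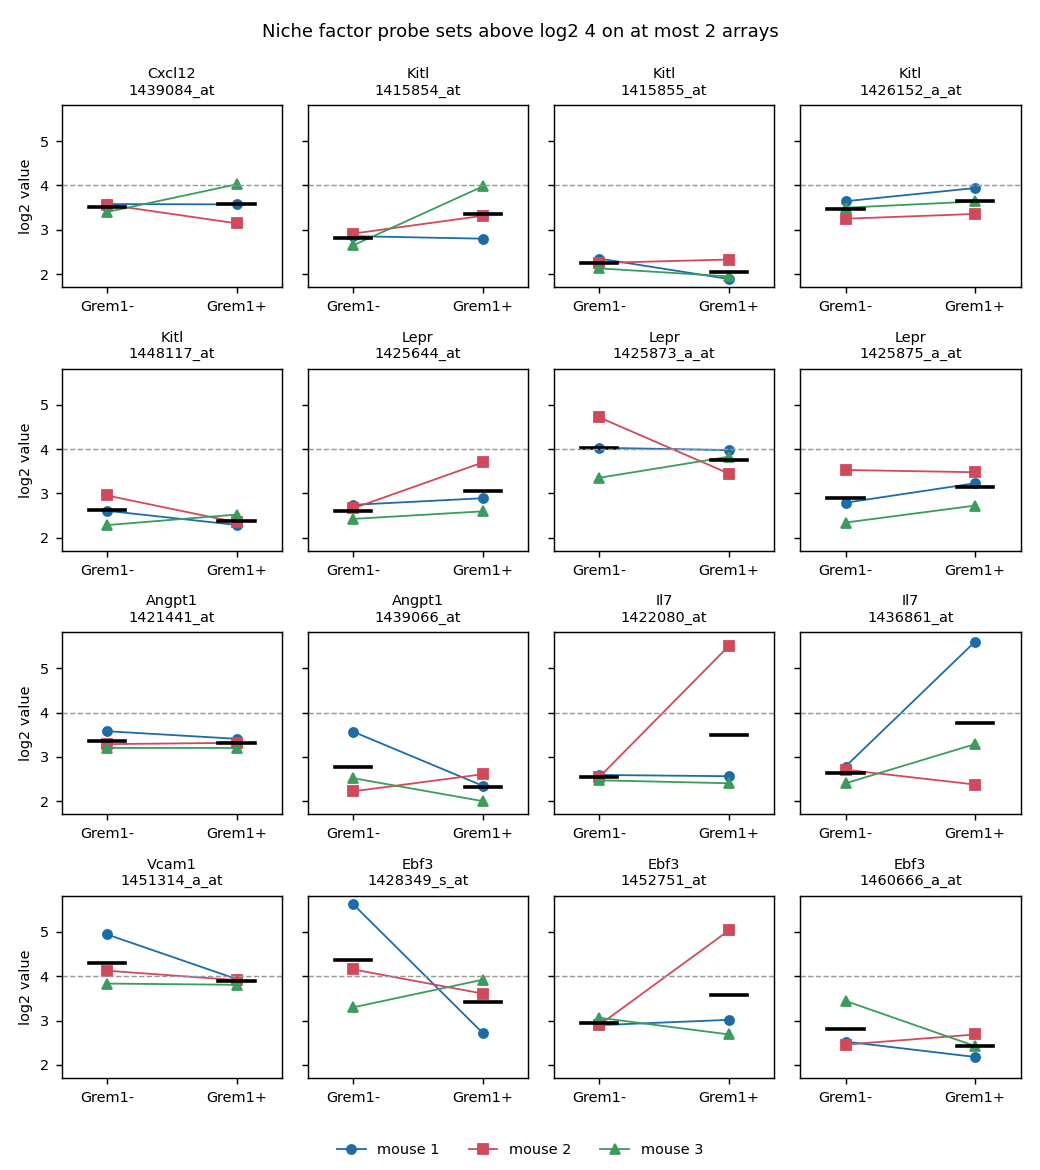
Log2 values of the 16 niche factor probe sets that lay above log2 4 on at most 2 arrays and were not tested. Axes, colours, lines and bars are as for the tested probe sets, and the y axis spans a narrower range. Kitl and Angpt1 stayed at or below 3.98 throughout, while Il7 1422080_at and Ebf3 1452751_at were raised in the Grem1+ fraction of mouse 2 alone.

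Lepr encodes the leptin receptor, the usual marker of reticular stromal cells in adult marrow. Probe set 1456156_at was at 6.34, 3.74 and 3.18 in Grem1- and at 3.01, 7.43 and 4.87 in Grem1+ for mice 1, 2 and 3. The fraction with the higher level was Grem1- in mouse 1 and Grem1+ in mice 2 and 3, with differences of -3.33, 3.69 and 1.69. The mean of 0.68 (SE 1.45) missed the threshold (adjusted p = 0.790), and leaving out mouse 3 gave 0.18 and leaving out mouse 2 gave -0.82. The 3 other probe sets of Lepr were above log2 4 on at most 2 arrays, with values from 2.34 to 4.71 and differences from -0.28 to 0.45.

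Vcam1, an adhesion receptor of stromal cells, endothelium and marrow macrophages, had lower values in Grem1+ without passing the threshold. Its brightest probe set, 1448162_at, was at 7.87, 9.03 and 7.51 in Grem1- and at 3.01, 6.90 and 5.88 in Grem1+, so each Grem1+ array lay below each Grem1- array and mouse 1 was lowest. The difference of -2.87 (SE 0.74) missed the threshold (adjusted p = 0.0685). With a floor at log2 4, to which dimmer values were raised, it was -2.54 and passed (adjusted p = 0.0482), and it also passed when probe sets had to exceed log2 5 (adjusted p = 0.0497), with adjusted p-values from 0.0482 to 0.194 over all alternatives. Probe set 1415989_at was at 6.64, 4.77 and 4.60 in Grem1- and at 3.19 to 3.49 in Grem1+, again without overlap (difference -1.96, SE 0.58, adjusted p = 0.0919). It met the condition for testing through its Grem1- arrays only, as all its Grem1+ arrays lay below log2 4. Leaving out mouse 1 brought the 2 differences to -1.88 and -1.21, and leaving out mouse 3 to -3.49 and -2.39. The dim probe set 1451314_a_at differed by -0.42.

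Jag1, a Notch ligand of stromal, bone and endothelial cells, was measured by 3 probe sets that did not behave alike. Probe set 1434070_at was at 8.45, 7.24 and 8.98 in Grem1- and at 9.47, 10.20 and 9.80 in Grem1+, with each Grem1+ array above each Grem1- array. The difference of 1.60 (SE 0.54) did not pass (adjusted p = 0.120) and was 0.92 without mouse 2 and 1.99 without mouse 3. Probe set 1421106_at was at 4.70, 3.95 and 3.93 and then at 5.24, 6.89 and 4.86, also without overlap (difference 1.47, SE 0.58, adjusted p = 0.160). In both, mouse 2 had the largest difference, at 2.97 and 2.93, and without it the difference of 1421106_at was 0.74. Probe set 1421105_at differed by -0.01 (SE 0.34, adjusted p = 0.993), with a range of 4.09 to 5.10 over all arrays.

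Bst1, an ectoenzyme also called CD157 that marrow stroma and myeloid and B lineage cells carry, fell in Grem1+. Probe set 1449453_at was at 7.83, 8.42 and 7.40 in Grem1- and at 2.35, 3.37 and 4.07 in Grem1+, with a wide gap between the groups in each mouse. The mean went from 7.88 ± 0.51 to 3.26 ± 0.87 (SD, n = 3), a difference of -4.62 (SE 0.53, adjusted p = 0.0154), or -5.26 without mouse 3. With the block kept the call was lost without mouse 1, 2 or 3 (adjusted p = 0.0605, 0.0737 and 0.0637), and without the block it held in each case (0.0237, 0.0387 and 0.0180). With the floor at log2 4 the level in Grem1- was 14.5-fold that in Grem1+. Probe set 1449454_at was at 6.27, 5.31 and 7.53 in Grem1- and at 4.43 to 4.46 in Grem1+, which missed the threshold (difference -1.93, SE 0.52, adjusted p = 0.0753). The mean of both probe sets differed by -3.27 (SE 0.28, adjusted p = 0.00522).

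Blood cell markers that passed were mostly lower in Grem1+, as Bst1 was, but macrophage markers went both ways. Vcam1 was lower without passing the threshold. Over all 10151 genes, each by its brightest tested probe set, 7.81% were lower and 11.1% higher. Of 12 pan-haematopoietic markers 11 were measured, and 7 were lower and 0 higher. Their summed level is the log2 of the sum of their values on the linear scale, in which the brightest genes weigh most. It ran from 14.57 to 14.72 in Grem1- but from 12.06 to 13.13 in Grem1+. Of 13 granulocyte markers 11 were measured and 8 were lower and 0 higher (summed level 14.69 to 14.77 in Grem1-, 11.72 to 13.55 in Grem1+). Of 10 B lineage markers 6 were measured and 3 were lower and 0 higher, with sums of 10.62 to 10.87 and 6.45 to 7.45, the lower ones being Cd79b, Vpreb1 and Ebf1. Vpreb1, Cd79b and Rag1 were below log2 4 on all Grem1+ arrays. Of 12 macrophage markers 5 were measured, Mertk was higher and Csf1r lower, and the sums overlapped, at 7.71 to 8.83 and 7.82 to 9.10. Of 10 erythroid markers 5 were measured and 3 were lower, and of 10 megakaryocyte markers 3 were measured and only Pf4 was lower. Of 10 endothelial markers 5 were measured and limma called 0, with 2 at an unadjusted p under 0.05. Without the condition on dim probe sets 3 of the 7 pan-haematopoietic, 3 of the 8 granulocyte and 2 of the 3 B lineage calls remained, while those of Csf1r and Pf4 were lost. The part of these cells in the Bst1 and Vcam1 values was not tested.

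Foxc1, a forkhead transcription factor of mesenchyme and of reticular niche cells, rose in Grem1+. Probe set 1419486_at was at 2.38, 2.49 and 2.73 in Grem1- and at 7.82, 8.35 and 7.35 in Grem1+, with the groups far apart in every mouse. All Grem1- arrays lay below log2 4, so the Grem1+ level was at least 14.3-fold higher when those arrays are set to log2 4 (fitted difference 5.30, SE 0.37, adjusted p = 0.00992), and the fitted difference was 5.65 without mouse 3. Leaving out mouse 1, 2 or 3 ended the call with the block kept (adjusted p = 0.0516, 0.0566 and 0.0637) and not without it (0.0166, 0.0177 and 0.0152). This probe set met the condition for testing through its Grem1+ arrays only. Probe set 1419485_at was at 3.24, 3.23 and 4.59 in Grem1- and at 4.78, 5.58 and 4.46 in Grem1+, with overlap in mouse 3 (difference 1.25, SE 0.57, adjusted p = 0.206). The mean of both probe sets differed by 3.28 (SE 0.44, adjusted p = 0.0106).

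Cartilage and bone markers were higher on the same arrays as Foxc1. Over all 10151 genes 11.1% were higher and 7.81% lower. All 10 chondrocyte markers were measured, 9 were higher and 0 lower, and their summed level lay between 12.33 and 12.89 in Grem1-, against 14.76 or more and up to 15.05 in Grem1+. Of 10 osteoblast markers 8 were measured, 5 were higher and 0 lower, with sums of 10.56 to 10.67 and 12.08 to 12.49. Without the condition on dim probe sets 8 of the 9 and 4 of the 5 calls remained. Their part in the Foxc1 and Jag1 values was not tested.

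Ebf3, a transcription factor of the EBF family restricted in marrow mainly to reticular cells, had no testable probe set. Probe set 1452751_at was at 5.03 in the Grem1+ fraction of mouse 2 and between 2.69 and 3.06 on the other arrays. Probe set 1428349_s_at was at 5.62 and 4.15 in the Grem1- fractions of mice 1 and 2 and at 2.72 to 3.92 on the remaining arrays, and 1460666_a_at stayed between 2.18 and 3.44.

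The Grem1+ fraction of mouse 2 had the highest value for several of these factors. It was the highest of all 6 arrays for 7 of the 12 tested probe sets, from Cxcl12, Lepr, Foxc1 and Jag1, where 21.3% of all tested probe sets had their highest value on that array. It was also highest for 10 of all 28, adding Il7 1422080_at, Ebf3 1452751_at and Lepr 1425644_at, although the last was below log2 4 on all arrays. No share over all named probe sets, tested or not, is given beside the 10. For Foxc1 1419486_at and Jag1 1434070_at all Grem1+ arrays lay above all Grem1- arrays. The mouse 2 array was near the other Grem1+ arrays there, at 8.35 against 7.82 and 7.35 and at 10.20 against 9.47 and 9.80. Probe sets of a gene share their target, so the 7 and 10 are not independent. Among reticular and perivascular markers, Gdpd2 was at 7.22 on this array and at 3.90 to 5.17 on the others, Serping1 at 6.67 against 3.53 to 5.84, and Lpl, the lipoprotein lipase, at 9.35 against 5.60 to 7.52. These 3 genes, and Pdgfra, were chosen after their values were seen. Over all 13 measured markers of that list, the mouse 2 array was the highest of the Grem1+ arrays for 7, a count without a share over all genes beside it. For others it was not the highest, with Pdgfra at 5.29 there against 7.41 and 6.05 in mice 1 and 3. Summed blood cell markers in Grem1+ had no order of mice 1, 2 and 3 common to all lists. The sums rose from mouse 1 over mouse 2 to mouse 3 for pan-haematopoietic markers, at 12.06, 12.42 and 13.13. Granulocyte markers, at 11.72, 13.03 and 13.55, and macrophage markers, at 7.82, 8.34 and 9.10, had the same order. B lineage markers were highest in mouse 2, at 6.45, 7.45 and 6.98. Megakaryocyte markers were highest in mouse 1 and lowest in mouse 2, at 5.88, 5.43 and 5.51. Erythroid markers shared the megakaryocyte order. The reason for the niche factor levels in the Grem1+ fraction of mouse 2 was not tested.

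**Figure D3:**
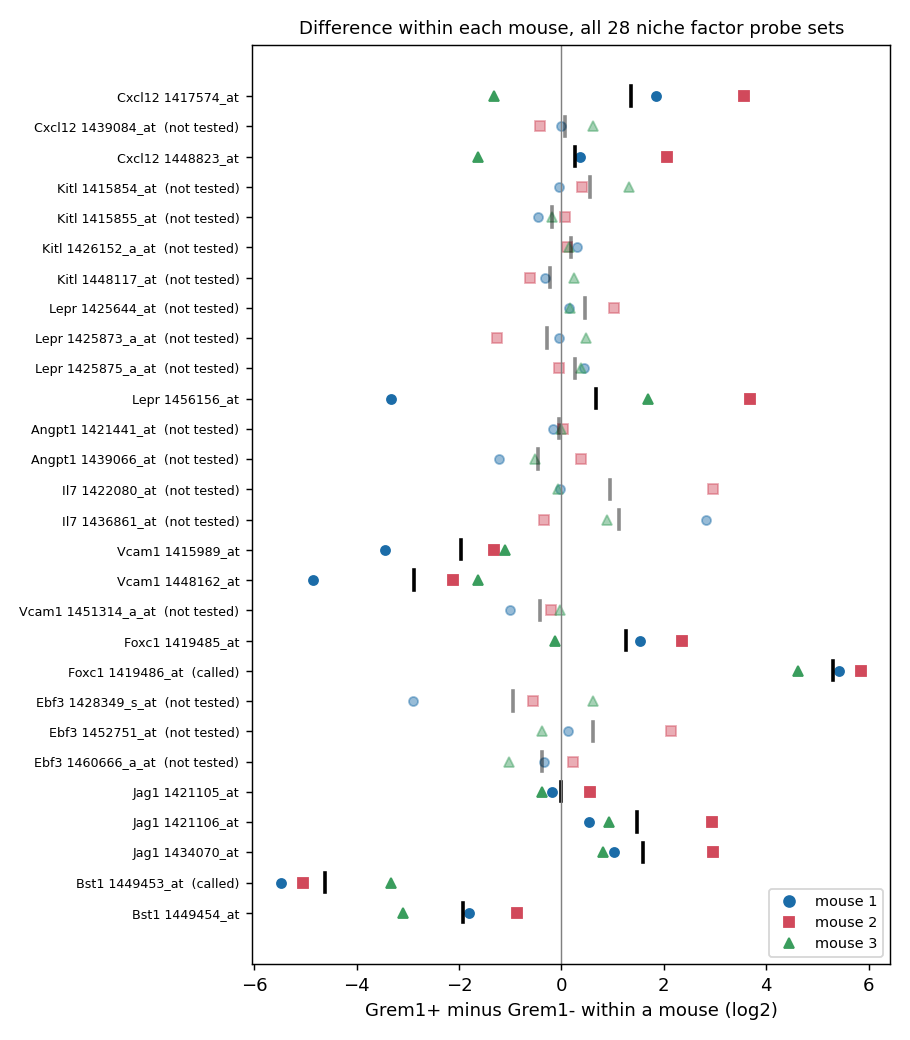
Difference between the Grem1+ and Grem1- fractions within each mouse for all 28 niche factor probe sets. The x axis is the log2 difference, coloured symbols are mice, black ticks are means over the 3 mice, and faded symbols are probe sets that were not tested. Mouse 2 lies furthest right for Cxcl12 1417574_at at 3.57, Lepr 1456156_at at 3.69 and Jag1 1434070_at at 2.97.

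Genes with profiles like those of Cxcl12 and Lepr were sought among 10151 genes, each by its brightest tested probe set, by the root mean square distance over the 6 arrays after each probe set was centred on its own mean. Nearest to Cxcl12 were Purg at 0.50, Paqr8 at 0.52, Bcl2, which restrains apoptosis, at 0.60, Prmt2 at 0.60 and Tmem35b at 0.61 (log2). Each of these had its highest value in the Grem1+ fraction of mouse 2 and a lower value in Grem1+ than in Grem1- in mouse 3. Nearest to Lepr were Gm5124 at 0.56, Ttc8, a subunit of the BBSome of cilia, at 0.60, Nfic at 0.62, Morc4 at 0.73 and Ogn, a small leucine-rich proteoglycan, at 0.78. All were highest in the Grem1+ fraction of mouse 2, and Ogn was at 8.75 there. These genes were picked for closeness to the Cxcl12 and Lepr profiles, so a shared order of arrays follows from the choice.

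The receptors and partners of the niche ligands went both ways. Of 17 genes listed 14 were measured, 2 were higher and 4 lower, with a median difference of -1.96, against 11.1% higher and 7.81% lower and a median of 0.04 over all 10151 genes. Ackr3, the atypical receptor that takes up and degrades CXCL12, was at 7.95, 7.84 and 6.08 in Grem1- and at 11.55, 11.56 and 11.63 in Grem1+ (difference 4.29, SE 0.51, adjusted p = 0.0163). Its Grem1+ values lay together and far above Grem1-, on a probe set that other transcripts may share. Cxcr4, the signalling receptor of CXCL12, was at 11.74 to 11.81 in Grem1- and at 6.19, 9.32 and 10.24 in Grem1+, which missed the threshold (difference -3.19, SE 0.89, adjusted p = 0.0798).

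The lower genes of this list were Kit, Mmp9, Itga4 and Itgb7, all of which blood cells are known to express. Kit, the receptor of stem cell factor, was below log2 4 on all Grem1+ arrays and at 4.09 to 5.87 in Grem1-, at least 1.87-fold lower (adjusted p = 0.0316). This call was lost with the floor at log2 4 and without the condition on dim probe sets. Mmp9, a protease that releases stem cell factor from the membrane, fell by 4.86 (SE 0.51, adjusted p = 0.0135), from 9.95 to 10.24 in Grem1- to 3.83 to 5.95 in Grem1+. Il7r, the receptor of interleukin 7, stood at 5.51 to 8.01 in Grem1-, while no Grem1+ array exceeded 3.45. Il7r thus met the condition for testing through its Grem1- arrays only, and it missed the threshold in limma (adjusted p = 0.0542). It passed under 6 alternatives, among them the fit without the replicate block (adjusted p = 0.0207). It did not pass without the condition on dim probe sets (adjusted p = 0.132) or with the floor at log2 4 (adjusted p = 0.0752). The integrins that bind VCAM1 split, with differences of -4.30 for Itga4 (SE 0.84, adjusted p = 0.0387), -2.03 for Itgb7 (SE 0.34, adjusted p = 0.0289) and 1.43 for Itgb1, the beta chain of many matrix receptors (SE 0.30, adjusted p = 0.0457). The 5 tested probe sets of Itgb1 ranged from -0.02 to 1.53 and the 4 of Itga4 from -4.30 to -2.12, and the calls of all 3 integrins were lost without the condition on dim probe sets, that of Itgb1 also when its probe sets were averaged.

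Of 17 Notch pathway genes 8 were measured, 1 was higher and 1 lower, again a share near that over all genes, with a median of -0.16 that was -0.38 without mouse 2. Hey1, a Notch target that BMP signals also induce, was at 3.26, 5.62 and 3.68 in Grem1- and at 9.45, 9.35 and 7.97 in Grem1+ (difference 4.74, SE 0.58, adjusted p = 0.0167). Notch1, a receptor of JAG1, was at 6.33 to 7.67 and at 5.30 to 5.35, a difference of -1.87 (SE 0.40, adjusted p = 0.0485), and lost its call without the condition on dim probe sets and with eBayes trend and robust. Notch2, another receptor, stood at 11.48 to 11.92 and 11.16 to 11.97.

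Other secreted or adhesive factors of the niche were higher as far as they passed. Of 17 genes 11 were measured, 5 were higher and 0 lower, with a median of 1.96. Over all 10151 genes 11.1% were higher and 7.81% lower, with a median of 0.04. Il11, a cytokine of the interleukin 6 family, was at 3.66, 2.73 and 4.36 in Grem1- and at 8.79, 8.56 and 8.92 in Grem1+ (difference 5.17, SE 0.37, adjusted p = 0.00992). Its Grem1+ values were close together, and with the floor at log2 4 the difference was 4.64. Igf1, a growth factor of stroma, rose by 3.72 (SE 0.66, adjusted p = 0.0321), Icam1, an adhesion receptor for leukocytes, by 3.07 (SE 0.42, adjusted p = 0.0198) and Ptn, the heparin-binding factor pleiotrophin, by 2.28 (SE 0.32, adjusted p = 0.0211). Fn1, the gene of fibronectin, was the other called member, at 1.71 (SE 0.32, adjusted p = 0.0359), and Igf1 and Fn1 lost their calls without the condition on dim probe sets. Tested probe sets ranged from 1.14 to 2.28 for Ptn and from 1.71 to 4.37 for Fn1.

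Of 21 reticular and perivascular markers 13 were measured, 2 were higher and 2 lower, a share near that over all genes (11.1% and 7.81%). Their median of 0.26 was 0.54 without mouse 1 and 0.70 without mouse 3. In limma 7 of the 13 had an unadjusted p under 0.05. Pdgfrb (difference 2.91, SE 0.64, adjusted p = 0.0504) and Nt5e (1.46, SE 0.34, adjusted p = 0.0545) missed the threshold narrowly, with all Grem1+ arrays above all Grem1- arrays. Both passed without the replicate block and not without the condition on dim probe sets. Their tested probe sets ranged from 0.19 to 2.91 and from -0.004 to 2.35. Chrdl1, a BMP antagonist of reticular cells, was at 3.44 to 4.48 in Grem1- and at 9.84 to 9.98 in Grem1+ (difference 6.13, SE 0.35, adjusted p = 0.00989), and its 4 tested probe sets ranged from 2.83 to 6.13. Foxc2, the close relative of Foxc1, was at 6.71, 2.86 and 5.49 in Grem1- and averaged 9.81 ± 0.17 in Grem1+ (SD, n = 3, difference 4.79, SE 0.80, adjusted p = 0.0284), and its call was lost without the condition on dim probe sets. Hp, haptoglobin, fell by 3.49 (SE 0.29, adjusted p = 0.0101). Ebf1, which both B cells and reticular cells use, differed by -2.15 (SE 0.42, adjusted p = 0.0395) and was no longer called when the replicate block was dropped (adjusted p = 0.107) or without the condition on dim probe sets. Adipoq, Ebf2, Cebpa and Pparg, which also mark these cells, were not measured above log2 4 on 3 arrays.

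**Figure D4:**
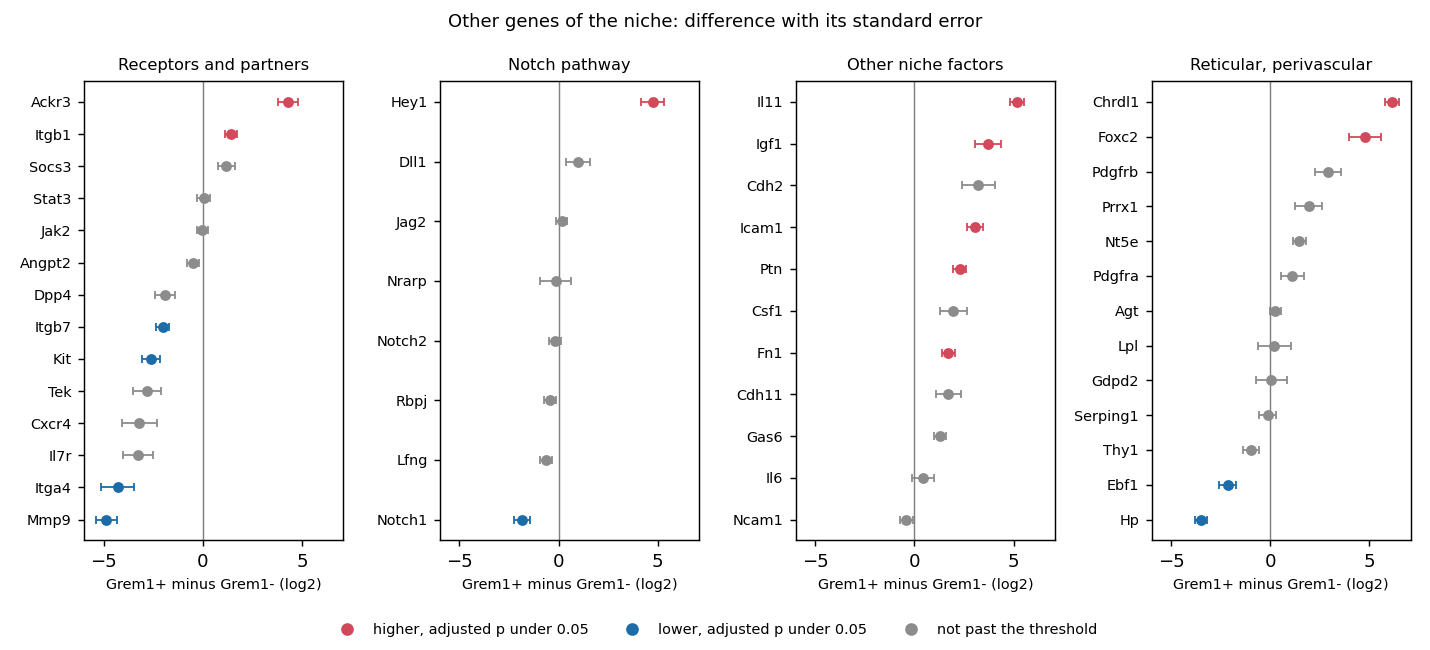
Difference between Grem1+ and Grem1- for the measured genes of 4 lists around the niche factors. The x axis is the log2 difference, points are genes by their brightest tested probe set, bars are standard errors from limma (n = 3 mice), and colour marks adjusted p under 0.05 in either direction. Ackr3, Hey1, Il11 and Chrdl1 lie furthest right in their lists, at 4.29, 4.74, 5.17 and 6.13.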

How the data were processed

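RNA of both fractions was amplified (Ovation One-Direct System), biotin-labelled and hybridised to Affymetrix arrays, per the labels' protocols. Values as deposited by the authors are on a log2 scale, judged from their range of 0.80 to 14.05, and come from GCRMA, per the submitters' processing notes; its version and parameters were not given in the sources used here. Of 45101 probe sets, 34945 had 1 gene symbol, 932 several (none holding a member), 9160 were unnamed here and 64 were controls.

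Tests used limma 3.58.1 (lmFit, eBayes, R 4.3.3), two-sided, with the mouse as a block, on named probe sets above log2 4 on at least 3 arrays, adjusted by Benjamini-Hochberg at 0.05, with 2 residual degrees of freedom. The series' design text gives the pairing; deviations from the group means correlated at 0.014, 0.052 and 0.031 between fractions of mice 1, 2 and 3. Genes in lists are represented by their brightest tested probe set. Log2 4 is a chosen limit, not a measured detection limit; where a called probe set had every array of the lower group below it, a bound is given. The number of arrays limits the precision. The script was tested on simulated data. From each list around the niche, up to 4 genes per direction with the largest called difference were named. Cxcr4, Il7r, Notch2, Fn1, Pdgfrb, Nt5e, the blood cell markers and the dim members of a list were named after their values were seen. Members, lists and tests were chosen with earlier results of these data known. The 17 alternatives changed the block, condition on dim values, normalization, probe sets, variance prior and mice.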

Additional observations from a re-analysis of the deposited data

How the results depend on the processing

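With the replicate block kept, leaving out any mouse left 1 residual degree of freedom and limma called 0 probe sets in either direction (0 to 0 for all probe sets and for the niche factors), while 5158, 5085 and 4967 had an unadjusted p under 0.05 without mice 1, 2 and 3. Without the replicate block as well, leaving out mice 1, 2 and 3 gave 1114, 1176 and 1122 higher and 761, 751 and 796 lower probe sets, and Foxc1 1419486_at and Bst1 1449453_at stayed past the threshold whichever mouse was left out (adjusted p at most 0.0177 and 0.0387). With all mice and no replicate block, 2329 were higher and 1876 lower, against 1826 and 1409 with it, and no niche factor changed its call. With 1 probe set per gene 1191 were higher and 864 lower, and with no condition on dim probe sets 1095 and 666. The lower niche factor probe sets numbered 2, with Vcam1 1448162_at added, when values had to exceed log2 5 and with the floor at log2 4. Of differences that did not pass, some changed sign. Without mouse 2 Cxcl12 1448823_at stood at -0.64 and Lepr 1456156_at at -0.82. Jag1 1421105_at stood at 0.088 without mouse 1, 0.18 without mouse 3 and 0.025 under cyclic loess. No other tested niche factor changed direction. Over all 17 alternatives the median difference of the Notch list ran from -0.38 to 0.04, that of receptors and partners from -2.13 to -1.03, that of other niche factors from 1.497 to 2.49, that of reticular markers from 0.25 to 1.07 and that of the measured niche factors, 1.02, from -0.28 to 1.51. The causes were not tested.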
